A study of Homo sapiens with 6 samples.

Results

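The genes examined here were 53 genes of mitosis and the kinetochore, found by symbol among the 47432 genes in the count tables of 6 human melanoma libraries. They were taken in 11 roles, from the cyclins and mitotic kinases through the spindle checkpoint, the kinetochore, kinesins, cytokinesis, anaphase onset and chromosome condensation to the transcription factors FOXM1 and MYBL2. All libraries came from LOX-IMVI, an established human melanoma line, grown in RPMI-1640 with fetal calf serum. The 3 shCtrl libraries came from cells with a control lentiviral pLKO.1 construct, and the 3 shNFKBIZ libraries from cells with a pLKO.1 short hairpin RNA against NFKBIZ, the gene of the nuclear NF-κB co-regulator IκBζ. Both groups had been transduced and selected with puromycin, a single hairpin was used, and no library came from a parental, untransduced line. The study asks what IκBζ controls in melanoma cells, including their proliferation.

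Mitotic genes are switched on late in the cell cycle. Before that time the DREAM complex holds many of them down through a short promoter element, the cell cycle genes homology region (CHR), and later MYBL2 (B-Myb) with the MuvB core and FOXM1 activate the same promoters, often together with NF-Y bound to CCAAT boxes. Their proteins then order chromosomes in time: cyclin B with CDK1 starts mitosis, the NDC80 complex ties kinetochores to microtubules, the spindle checkpoint holds back CDC20 and the anaphase-promoting complex until all chromosomes are attached, and PRC1, ECT2 and anillin divide the cell.

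The promoters of members that moved in opposite directions are shown first, since they carry the same letters. Each line gives the 100 bases before and the 50 bases from the start site (RefSeq, GRCh38.p14), 5′ to 3′ on the strand of the gene, with CHR letters (TTTGAA or TTCGAA) and CCAAT boxes on either strand in capitals. CCNB2 (chr15:59105046-59105195, plus strand), PRC1 (chr15:90994486-90994635, minus strand) and PLK1 (chr16:23678789-23678938, plus strand) had fewer exon reads in shNFKBIZ cells, and SPC25 (chr2:168890381-168890530, minus strand) and KIF4A (chrX:70290004-70290153, plus strand) had more.
CCNB2: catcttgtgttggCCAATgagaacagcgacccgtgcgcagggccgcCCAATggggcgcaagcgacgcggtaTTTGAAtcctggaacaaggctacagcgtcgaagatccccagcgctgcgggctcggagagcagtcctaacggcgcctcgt
PRC1: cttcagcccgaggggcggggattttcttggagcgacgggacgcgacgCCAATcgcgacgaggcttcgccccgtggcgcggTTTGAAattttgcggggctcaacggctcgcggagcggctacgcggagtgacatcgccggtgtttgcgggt
PLK1: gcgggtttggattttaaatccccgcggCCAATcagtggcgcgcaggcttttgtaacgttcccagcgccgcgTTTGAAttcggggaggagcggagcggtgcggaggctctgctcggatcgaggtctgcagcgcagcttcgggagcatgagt
SPC25: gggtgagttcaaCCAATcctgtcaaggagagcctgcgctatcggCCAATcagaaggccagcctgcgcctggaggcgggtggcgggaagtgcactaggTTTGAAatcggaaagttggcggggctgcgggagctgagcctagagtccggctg
KIF4A: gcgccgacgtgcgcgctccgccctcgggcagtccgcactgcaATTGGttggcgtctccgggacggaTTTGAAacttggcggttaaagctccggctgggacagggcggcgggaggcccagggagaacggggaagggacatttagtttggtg

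In these 5 windows a CHR lay near the start site and at least 1 CCAAT box lay upstream of it. A RefSeq window of 300 bases (250 before and 50 from the start) was found for 46 of the 53 members. CHR letters occurred in 33 of them (71.74%), against 16.62% of the 27305 genes with a window, and CCAAT on either strand in 32 (69.57%), against 35.7%. Both motifs occurred in 25 members (54.35%) and in 6.581% of all genes. Within 50 bases of the start, CHR letters were found in 27 members (58.7%) and in 5.05% of all genes. Matches of the 2 motifs can share letters, and a match is a description of the window only. Members with CHR letters were found in both directions of change: 7 of the 10 that were higher in exon reads, 14 of the 19 that were lower and 12 of the 17 that were not called. CHR letters within 50 bases of the start were found in 4, 11 and 12 of them, and both motifs in 5, 13 and 7. The windows of MYBL2, CENPE and CENPI (lower), CDC25B (higher), CDC25C and KIF2C (not called) held neither set of letters. Only the first window listed for each gene was searched. Some windows lay inside the annotated gene and not at its annotated start. That of CENPI (chrX:101100808-101101107) was such a window, with an annotated start at chrX:101098188. The printed windows of PRC1, PLK1 and SPC25 also lay inside the gene, whose annotated start for SPC25 is chr2:168913371. Those of CENPA, NUF2, KIF11 and NUSAP1 were further cases.

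Reads in exons and in introns were counted separately for each gene. Exon reads come mostly from spliced mRNA, and intron reads mostly from RNA that has not been spliced yet, so each gene had 2 readouts from the same library. Values per library are given as CPM, the read count scaled to a fixed library size, of that kind of read after scaling with trimmed mean of M values (TMM) factors, and levels of different genes are compared only in TPM, the transcript share per length of the gene. A gene was called at an adjusted P of at most 0.05 in the edgeR quasi-likelihood test over all genes.

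NFKBIZ (ENSG00000144802) served to check the labels. It had 66.0, 68.7 and 76.1 CPM of exon reads in shCtrl and 20.7, 20.6 and 20.1 CPM in shNFKBIZ, so that exon reads fell by 1.78 on the log2 scale (SE 0.0581, adjusted P 7.20e-17, edgeR). Libraries held 22264473 to 24624839 exon reads. Of 5 markers of a dedifferentiated melanoma line (AXL, NGFR, EGFR, SOX9 and TNC), 4 had enough exon reads to be tested, and 3 were called higher and 1 lower. The 5 summed to 873 to 919 TPM in shCtrl and 857 to 882 TPM in shNFKBIZ. Mean TNC fell from 423 to 264 TPM, and mean SOX9 rose from 21.6 to 55.1 TPM. SOX10 and MLANA were at 0 reads, and the 7 melanocyte genes summed to 3.19 to 4.23 TPM in shCtrl and 1.79 to 2.62 TPM in shNFKBIZ. Markers of leukocytes and endothelium stayed at or under 0.537 TPM in sum, and the 4 epithelial markers summed to 0.593 to 1.05 TPM in shCtrl and 1.58 to 1.85 TPM in shNFKBIZ. The part of these markers in the changes of the members was not tested. In bulk RNA, a smaller share of cells in mitosis and less RNA of a gene per cell cannot be told apart.

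All 53 members were well expressed. Mean levels in shCtrl ranged from 15.3 TPM for CDC25C to 518 TPM for CDC20, with a median of 94.4 TPM. After CDC20, the highest were the Aurora A activator TPX2 (446 TPM), topoisomerase TOP2A (325 TPM) and cyclin B1 (CCNB1, 315 TPM). The lowest after CDC25C were the kinetochore protein CENPI (24.95 TPM) and the kinesin KIF15 (25.8 TPM). The median coefficient of variation between the 3 libraries was 3.23% in shCtrl and 3.12% in shNFKBIZ. Together the members took 0.693% to 0.710% of exon reads in shCtrl and 0.708% to 0.725% in shNFKBIZ. Each had a mean of 297 to 13223 exon reads per library (median 2276), but only 8.17 to 495 intron reads (median 155.5), so changes of intron reads were known less precisely, with a median SE of 0.107 against 0.0403 for exon reads on the log2 scale.

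In exon reads the mitotic genes moved both ways, and none of the 53 was past a 2-fold change, against 8.96% of all genes tested. MYBL2, CCNB2, FOXM1, PRC1 and CENPE fell most, and SPC24, NUSAP1, KIF4A, SPC25 and BUB3 rose most. Of the 53, 13 were called higher (24.53%, against 32.5% of all genes) and 21 lower (39.62%, against 32.8%), and 19 were not called. The share called in either direction was 64.15%, near the 65.3% of all 13843 genes tested. Log2 fold changes ranged from -0.69 to 0.54 with a median of -0.07, where the median of all genes was 0.00. The CPM ranges of shCtrl and shNFKBIZ stood apart for 13 members that were higher (34.1% of all genes) and 25 that were lower (34.6% of all genes).

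The balance of rises and falls depended on the scaling. With library size alone, 19 members were higher and 16 lower (35.8% and 30.2%, against 40.9% and 26.4% of all genes), their median was 0.02 and that of all genes 0.09. With a trend on GC content and exon length removed, 18 were higher and 15 lower (34% and 28.3%, against 38% and 30.4% of all genes), with a median of -0.00294 where all genes had 0.05. With reads across exon junctions alone, 13 were higher and 16 lower (24.5% and 30.2%, against 27% and 27.9% of all genes), and the median was -0.03. Over all 16 alternatives run, 10 of the 13 rises kept their call, and KIF15, NUSAP1 and TOP2A lost it in at least 1. Of the 21 falls, 14 kept their call (CCNB1, CCNB2, PLK1, AURKA, INCENP, CENPE, KIF11, KIF18A, ECT2, PRC1, CDC20, ESPL1, FOXM1 and MYBL2). CCNA2, MAD2L1, CENPI, NDC80, KIF14, KIF23 and ASPM lost theirs in at least 1. No called member changed sign.

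**Figure D1:**
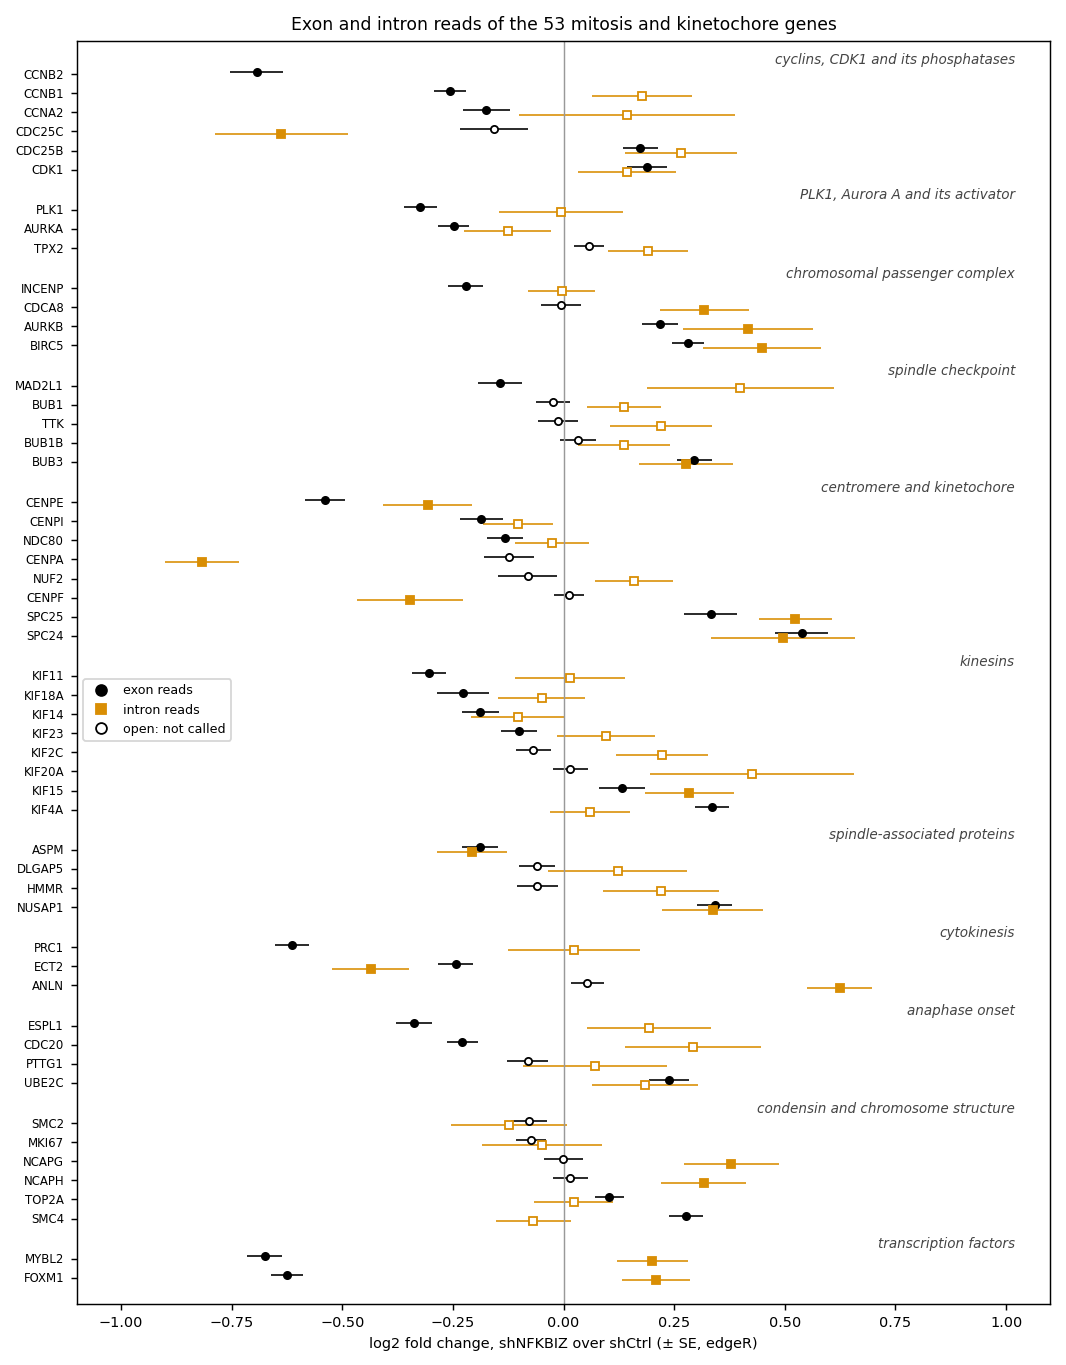
Log2 fold change of exon reads (black circles) and intron reads (orange squares) of each member, shNFKBIZ over shCtrl, by role, with bars of 1 SE and filled symbols where the gene was called. Exon changes lie between -0.69 and 0.54, and FOXM1 and MYBL2 have exon symbols left of 0 and intron symbols right of it.

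FOXM1 and MYBL2, which activate late cell cycle genes, had the widest gap between both readouts. FOXM1 (chr12:2857680-2877174, minus strand, hg38) had 220.5, 227 and 214 CPM of exon reads in shCtrl and 140.2, 143 and 145 CPM in shNFKBIZ. All knockdown libraries were below all controls, and exon reads fell by 0.63 on the log2 scale (SE 0.0359, adjusted P 1.27e-12, edgeR). Its intron reads went the other way, with 149, 148 and 153 CPM in shCtrl and 171, 178 and 171 CPM in shNFKBIZ (log2 fold change 0.21, SE 0.0766, adjusted P 0.0283, edgeR). The groups did not overlap in either readout.

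MYBL2 (chr20:43667019-43716495, plus strand) had 141, 145 and 138 CPM of exon reads in shCtrl and 88.4, 91.8 and 84.8 CPM in shNFKBIZ, and exon reads fell by 0.68 on the log2 scale (SE 0.0399, adjusted P 2.04e-12, edgeR). Intron reads were 153, 170.4 and 176 CPM in shCtrl and 181, 212 and 180.4 CPM in shNFKBIZ (log2 fold change 0.20, SE 0.0805, adjusted P 0.0451, edgeR), and every knockdown library was above every control library. The test of the difference itself, as an interaction of kind of read and group, gave an exon change minus intron change of -0.83 for FOXM1 (SE 0.0784, adjusted P 3.48e-16, edgeR) and -0.88 for MYBL2 (SE 0.0790, adjusted P 5.13e-17, edgeR). Intron reads made up 4.91% to 5.41% of the reads of FOXM1 in shCtrl and 8.80% to 9.64% in shNFKBIZ. For MYBL2 these shares were 7.80% to 9.25% and 14.3% to 16.6%. Over all alternatives that tested them the falls of exon reads and the differences stayed called. The rise of intron reads lost its call in 8 settings for FOXM1 (adjusted P 0.00474 to 0.138 over all settings, edgeR or DESeq2) and in 5 for MYBL2 (0.0104 to 0.288). FOXM1 overlaps ITFG2 and RHNO1 in the annotation. ITFG2 had a log2 fold change of 0.94 in exon and 0.14 in intron reads, and RHNO1 of 0.13 and 0.42, with neither intron change called. Strand was ignored when reads were counted, so FOXM1 reads in shared stretches cannot be told apart from theirs. No other gene overlaps MYBL2.

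**Figure D2:**
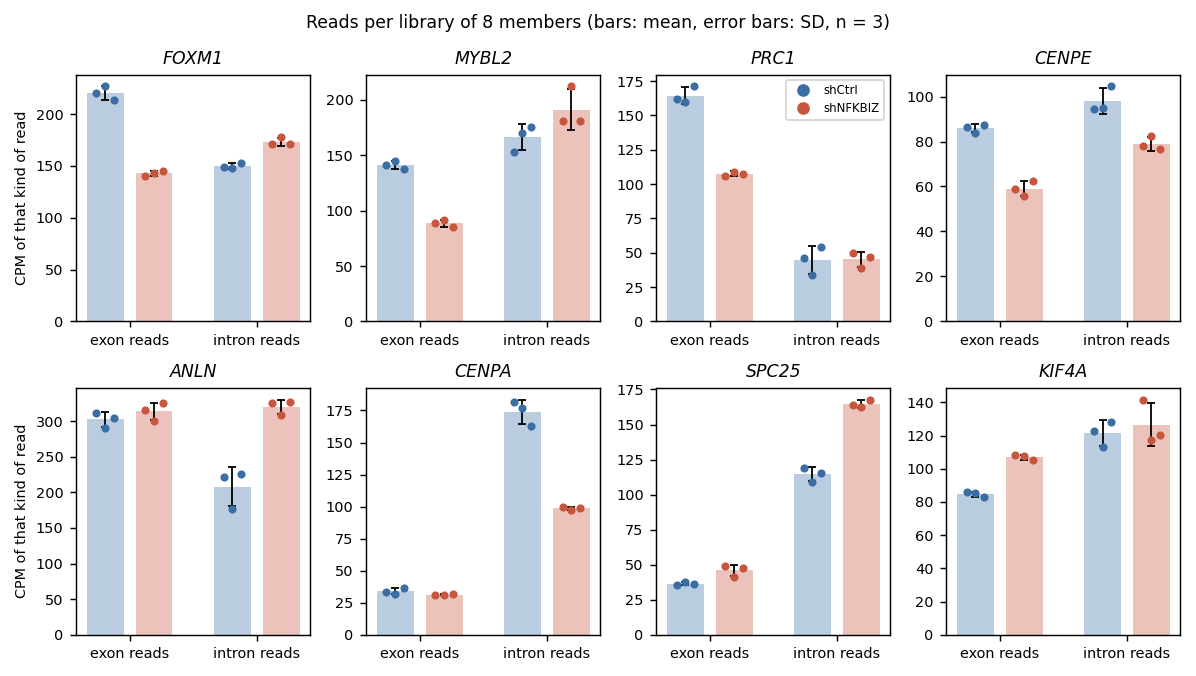
CPM of exon and of intron reads in each library for 8 members (points: libraries, bars: mean, error bars: SD, n = 3, axes from 0). Exon reads of FOXM1 and MYBL2 are lower and their intron reads higher in shNFKBIZ, PRC1 and CENPE are lower in exon reads, ANLN and SPC25 are higher in intron reads, and CENPA is lower in intron reads.

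The cyclins that drive entry into mitosis fell, but their kinase did not. Cyclin B2 (CCNB2, chr15:59105126-59125045) fell most of all members in exon reads, from 64.4, 62.6 and 63.6 CPM to 42.6, 34.6 and 40.6 CPM, with no overlap (log2 fold change -0.69, SE 0.0597, adjusted P 6.91e-09, edgeR). It had too few intron reads to be tested. Cyclin B1 (CCNB1) fell from 205, 206 and 204 CPM to 169.6, 167 and 178 CPM (log2 fold change -0.26, adjusted P 1.69e-06, edgeR), while its intron reads had a log2 fold change of 0.18 that was not called. CDK1, the kinase that binds them, was higher, at 149, 137 and 151 CPM against 127, 121 and 135 CPM in shCtrl (log2 fold change 0.19, adjusted P 0.00113, edgeR). Of the other genes of this role, CCNA2 (cyclin A2) had a log2 fold change of -0.17 and was called lower, the phosphatase gene CDC25B (0.17) was called higher and CDC25C (-0.16) was not called.

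PLK1, the Polo kinase of mitotic entry and spindle assembly, had 169, 178 and 166 CPM of exon reads in shCtrl and 139, 138 and 132 CPM in shNFKBIZ (log2 fold change -0.32, adjusted P 1.54e-07, edgeR). Aurora A (AURKA), which activates PLK1 and builds spindle poles, fell from 176, 174 and 175 CPM to 149, 144 and 149 CPM (log2 fold change -0.25, adjusted P 1.99e-06, edgeR). In both, all knockdown libraries lay below all controls, and intron reads were not called. TPX2, which targets Aurora A to microtubules, had a log2 fold change of 0.06 and was not called (adjusted P 0.132, edgeR).

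The chromosomal passenger complex, which corrects wrong attachments at the centromere, was divided. Its kinase AURKB had 74.6, 72.4 and 74.4 CPM of exon reads in shCtrl and 85.8, 88.2 and 83.7 CPM in shNFKBIZ (log2 fold change 0.22, adjusted P 6.79e-05, edgeR). Survivin (BIRC5) rose as well, with a log2 fold change of 0.28, whereas the scaffold INCENP fell by 0.22 on the log2 scale and borealin (CDCA8) was not called. Intron reads rose for AURKB (0.42), BIRC5 (0.45) and CDCA8 (0.32).

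In the spindle checkpoint, BUB3, which carries checkpoint kinases to the kinetochore, rose from 215, 206 and 225 CPM to 269, 251 and 272 CPM of exon reads (log2 fold change 0.30, SE 0.0393, adjusted P 9.59e-07, edgeR). MAD2L1, the inhibitor of CDC20, had 67.0, 63.1 and 70.0 CPM in shCtrl and 63.1, 57.0 and 61.1 CPM in shNFKBIZ (log2 fold change -0.14, adjusted P 0.0146, edgeR). Its call was lost with library size alone, with the GC and length trend removed, with junction reads, and without shCtrl replicate 3 or shNFKBIZ replicate 2. BUB1B, BUB1 and TTK had log2 fold changes between -0.02 and 0.03 and were not called, although BUB1B (0.03) was called higher with library size alone (0.12, adjusted P 0.0130, edgeR) and with the trend removed (0.09, adjusted P 0.0173, edgeR).

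At the kinetochore, subunits of one complex parted. The NDC80 complex holds NDC80, NUF2, SPC24 and SPC25. SPC24 (chr19:11131520-11155807) had 23.03, 23.6 and 21.5 CPM of exon reads in shCtrl and 31.1, 33.8 and 34.0 CPM in shNFKBIZ, the largest rise of the 53 (log2 fold change 0.54, SE 0.0594, adjusted P 6.03e-08, edgeR). With junction reads alone its log2 fold change was 0.81. SPC25 (chr2:168834132-168913371) rose from 35.8, 37.5 and 35.9 CPM to 49.0, 41.1 and 47.4 CPM (log2 fold change 0.33, SE 0.0596, adjusted P 5.25e-05, edgeR), and its intron reads from 119, 109 and 115 CPM to 164, 163 and 168 CPM (0.52, adjusted P 2.57e-06, edgeR). NDC80, the microtubule-binding subunit, was instead lower, at 76.1, 73.5 and 73.9 CPM against 80.8, 80.7 and 83.5 CPM (log2 fold change -0.13, adjusted P 0.00686, edgeR), a call that was lost with library size alone (-0.04), with the trend removed (-0.06) and with junction reads alone (-0.09). NUF2 had a log2 fold change of -0.08 and was not called.

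CENPE (chr4:103105349-103198445), the kinesin that carries chromosomes to the spindle equator, fell in both readouts. Its exon reads went from 86.4, 84.0 and 87.3 CPM to 59.1, 55.9 and 62.3 CPM (log2 fold change -0.54, SE 0.0451, adjusted P 7.28e-10, edgeR), and its intron reads from 94.5, 94.8 and 105 CPM to 78.0, 82.5 and 76.5 CPM (-0.31, adjusted P 0.0134, edgeR). The intron call was lost with the exon factors, with DESeq2, and without shCtrl replicate 3 or shNFKBIZ replicate 3 (-0.31 to -0.23, adjusted P 0.0515 to 0.0911). CENPA, the histone that marks centromeres, differed chiefly in intron reads. These were 182, 177 and 163 CPM in shCtrl and 99.4, 97.5 and 99.1 CPM in shNFKBIZ (log2 fold change -0.82, SE 0.0840, adjusted P 3.78e-10, edgeR), while exon reads were 33.5, 31.8 and 36.4 CPM and 30.7, 31.0 and 31.5 CPM (-0.12, adjusted P 0.0628, edgeR). Exon reads of CENPA were called lower with unique reads (-0.13, adjusted P 0.0490, edgeR), total gene reads (-0.29, adjusted P 3.46e-05, edgeR), a replicate block (-0.12, adjusted P 0.0407, edgeR) and without shCtrl replicate 2 (-0.17, adjusted P 0.0199, edgeR). CENPA overlaps SLC35F6, whose exon reads changed by -0.60, and since strand was ignored when reads were counted, reads in shared stretches cannot be told apart. CENPF was not called in exon reads (0.01), though called higher with library size alone (0.10) and with the trend removed (0.13), and was lower in intron reads (-0.35), a call lost with DESeq2, with the exon factors and without shCtrl replicate 2 or shNFKBIZ replicate 1. CENPI was called lower in exon reads (-0.19).

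Of the 8 kinesins, 2 were called higher and 4 lower, which became 3 and 3 with library size alone and 2 and 2 with the trend removed. KIF4A (chrX:70290104-70420886), a chromosome-bound kinesin that acts with condensin and PRC1, rose from 85.8, 85.3 and 83.0 CPM to 108, 107 and 105 CPM of exon reads (log2 fold change 0.34, SE 0.0382, adjusted P 9.70e-08, edgeR). Its intron reads were 123, 113 and 128 CPM and 142, 118 and 121 CPM, which overlapped (0.06, adjusted P 0.640, edgeR). KIF11 (Eg5), which pushes spindle poles apart, fell from 140.0, 133 and 130.5 CPM to 109.7, 107 and 110.0 CPM (log2 fold change -0.30, adjusted P 4.12e-07, edgeR). KIF18A (-0.23), KIF14 (-0.19) and KIF23 (-0.10) were called lower and KIF15 (0.13) higher, whereas KIF2C and KIF20A were not called.

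Among spindle-associated proteins, NUSAP1 rose and ASPM fell. NUSAP1 (chr15:41320794-41381050) had 98.1, 100.4 and 105 CPM of exon reads in shCtrl and 132, 123 and 129 CPM in shNFKBIZ (log2 fold change 0.34, SE 0.0403, adjusted P 1.63e-07, edgeR), but only 4.07% of its exon reads were unique to it, and when those were counted alone the log2 fold change was 0.12 (adjusted P 0.424, edgeR). ASPM, a spindle pole protein, was called lower in exon reads (-0.19) and in intron reads (-0.21). Its exon call was lost with the GC and length trend removed, and its intron call did not stay whichever library was left out. DLGAP5 (-0.06) and HMMR (-0.06) were not called.

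The cytokinesis genes gave 3 different patterns. PRC1 (chr15:90966040-90995629), which bundles microtubules of the central spindle, had 162, 159.6 and 171 CPM of exon reads in shCtrl and 106, 109 and 108 CPM in shNFKBIZ (log2 fold change -0.61, SE 0.0381, adjusted P 4.86e-12, edgeR), with intron reads of 45.8, 34.1 and 54.0 CPM and 49.7, 39.0 and 47.2 CPM that overlapped. Of its intron reads 0% were unique, so they cannot be assigned to PRC1 with certainty. Of its exon reads 12% were unique, and with those alone the log2 fold change was -0.61. Anillin (ANLN), which scaffolds the contractile ring, had 312, 290.3 and 305 CPM and 316, 301 and 325 CPM of exon reads, which overlapped (0.05, adjusted P 0.212, edgeR), but its intron reads rose from 222, 177 and 225 CPM to 325, 308 and 327 CPM (log2 fold change 0.62, SE 0.0745, adjusted P 1.32e-08, edgeR). Without shCtrl replicate 2, the lowest control, the rise of ANLN introns was 0.51. With library size alone or with the trend removed, its exon reads were called higher (0.14 and 0.15). ECT2, the exchange factor that activates RhoA at the cleavage plane, was lower in both, by exon (-0.24) and intron reads (-0.44).

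Of the anaphase genes, CDC20, the activator of the anaphase-promoting complex, had 269, 285 and 282 CPM of exon reads in shCtrl and 244, 234 and 236 CPM in shNFKBIZ (log2 fold change -0.23, adjusted P 5.76e-06, edgeR). Its intron reads were 33.5, 29.3 and 33.5 CPM and 45.4, 37.5 and 35.1 CPM, higher in every knockdown library, though not called (0.29, adjusted P 0.130, edgeR). Separase (ESPL1), which cuts cohesin, was lower (-0.34), the ubiquitin-conjugating enzyme UBE2C was higher (0.24), and securin (PTTG1) was not called (-0.08).

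Condensin and chromosome proteins had no called fall. SMC4, the condensin ATPase, was called higher (0.28), and its partner SMC2 had a log2 fold change of -0.08 that was not called. TOP2A, which untangles sister DNA, rose from 555, 543 and 564 CPM to 611, 575 and 598 CPM (log2 fold change 0.10, adjusted P 0.00917, edgeR), a call that was lost without shNFKBIZ replicate 1 (0.08, adjusted P 0.0824, edgeR). MKI67, the gene of the proliferation marker Ki-67, had 453, 478 and 442 CPM in shCtrl and 437, 441 and 427 CPM in shNFKBIZ and was not called (-0.07, adjusted P 0.0682, edgeR). It was called lower with total gene reads (-0.09, adjusted P 0.0406, edgeR), with a replicate block (adjusted P 0.0377, edgeR) and without shCtrl replicate 3 (-0.10, adjusted P 0.0169, edgeR), and with library size alone its change was 0.02. The condensin I subunit NCAPG had 84.6, 80.8 and 80.6 CPM and 84.8, 77.2 and 84.0 CPM of exon reads, which overlapped, and intron reads of 87.8, 69.7 and 89.2 CPM and 114, 92.5 and 114 CPM, which did not (log2 fold change 0.38, adjusted P 0.00486, edgeR). Without shCtrl replicate 2 that rise was 0.27 and lost its call (adjusted P 0.0753, edgeR). With the GC and length trend removed, its exon reads were called higher (0.09, adjusted P 0.0261, edgeR).

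Intron reads of most members had a positive change. Of the 52 members that could be tested, 13 were called higher in intron reads (25%, against 19.3% of all 12119 genes tested) and 6 lower (11.54%, against 19.5%), and the share called was 36.54% against 38.8%. None was past a 2-fold change, against 6.6% of all genes. The median log2 fold change was 0.14, against 0.01 for all genes, and 36 of the 52 had a positive value. Intron medians of the other cell cycle lists described below were 0.34 for DNA replication and G1/S and 0.33 for the inner centromere network. They were 0.18 for the outer kinetochore, 0.17 for the anaphase-promoting complex, 0.15 for cohesin and other condensin subunits, -0.09 for DREAM and MuvB and -0.33 for the inhibitors. The number called higher was 6 without shCtrl replicate 1 (11.3%, against 15.6% of all genes), 5 without shCtrl replicate 2 (9.62%, against 15.7%) and 3 with DESeq2 (5.77%, against 11.4%), so that the members' share lay below that of all genes in these fits and above it with all libraries in edgeR. SPC25 and ANLN alone of the 13 stayed higher whichever library was left out, and CDC25C, CENPA and ECT2 of the 6 stayed lower. When intron reads were scaled with the factors of the exon reads, 19 were higher and 3 lower (36.5% and 5.77%, against 24.3% and 14.9% of all genes). The groups did not overlap for 16 members that were higher (24.5% of all genes) and 7 that were lower (23.8%). Library by library, the median of the members was set against the shCtrl mean on the log2 scale. In intron reads it was 0.01, -0.02 and 0.03 for shCtrl and 0.15, 0.10 and 0.13 for shNFKBIZ. In exon reads it was 0.00173, -0.02 and 0.00642 for shCtrl and -0.07, -0.12 and -0.05 for shNFKBIZ.

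Both readouts were called in 12 members. The share of all genes in such joint classes was not counted, so these counts only describe the members. Of all genes tested, 65.3% were called in exon reads and 38.8% in intron reads. AURKB, BIRC5, BUB3, SPC24, SPC25, KIF15 and NUSAP1 were higher in both (0% of the intron reads of NUSAP1 were unique to it), CENPE, ASPM and ECT2 were lower in both, and FOXM1 and MYBL2 were lower in exon and higher in intron reads. In 15 members exon reads were lower and intron reads not called. CDCA8, ANLN, NCAPG and NCAPH were higher in intron reads with exon reads not called, and CDC25C, CENPA and CENPF were lower in intron reads with exon reads not called. Across the 52 members, exon and intron changes had a Pearson correlation of 0.38, and across all 11025 genes tested in both it was 0.70. Genes share libraries and are not independent replicates, so these are descriptions.

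**Figure D3:**
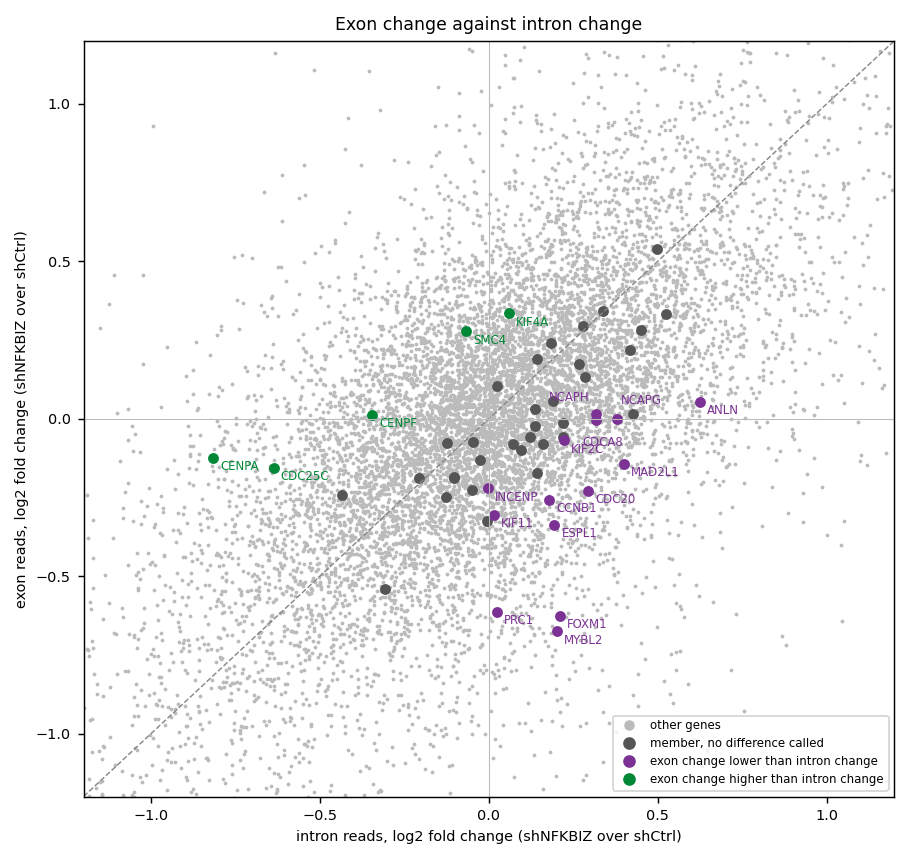
Log2 fold change of exon reads (vertical axis) against that of intron reads (horizontal axis), for 52 members (large points) and other genes tested in both (grey), within -1.2 and 1.2 on both axes. The dashed line marks equal change, and FOXM1, MYBL2 and PRC1 lie farthest below it and CENPA farthest above it among the members.

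The difference between the exon and the intron change was then tested gene by gene. It was called below 0 for 14 members (26.92%, against 16.5% of all 11025 genes tested) and above 0 for 5 (9.615%, against 12.4%), with a median of -0.17 where all genes had -0.02. Of the other cell cycle lists described below, the anaphase-promoting complex had 5 of 16 genes below 0 (median -0.17). Cohesin and other condensin subunits had 5 of 14 (-0.14), and DNA replication and G1/S had 7 of 23 (-0.11). The inner centromere network had 3 of 15 (-0.00426), the outer kinetochore 0 of 12 (-0.04), DREAM and MuvB 1 of 11 (0.09) and the inhibitors 0 of 4 (-0.06). With the exon factors for both kinds of read, 22 members were below and 2 above (42.3% and 3.85%, against 20.5% and 8.15% of all genes, whose median was then -0.09). The 14 with the lower exon change were CCNB1, INCENP, CDCA8, MAD2L1, KIF11, KIF2C, ANLN, PRC1, CDC20, ESPL1, NCAPG, NCAPH, FOXM1 and MYBL2. After FOXM1 and MYBL2 the largest differences were those of PRC1 (-0.64, SE 0.140, adjusted P 0.000157, edgeR), none of whose intron reads was unique to it, ANLN (-0.57, SE 0.0737, adjusted P 3.05e-10, edgeR) and MAD2L1 (-0.54, SE 0.200, adjusted P 0.0302, edgeR). MAD2L1 had only 27 to 63 intron reads per library, and its difference was lost on leaving out shCtrl replicate 2, shCtrl replicate 3 or shNFKBIZ replicate 3, the last of which gave -0.29 (adjusted P 0.394, edgeR). The 5 with the higher exon change were CENPA (0.70, SE 0.0990, adjusted P 8.44e-09, edgeR), CDC25C (0.48), CENPF (0.36), SMC4 (0.35) and KIF4A (0.28). CENPA and SMC4 stayed called in all alternatives that tested them, as did CCNB1, ANLN, ESPL1, FOXM1 and MYBL2 among the 14. CENPA, SMC4, ANLN and FOXM1 overlap other genes, so the setting of members without an overlapping gene left them out. SMC4 overlaps, among others, IFT80, TRIM59 and an unnamed gene, whose exon reads changed by -0.48, -0.64 and 1.66. CDC25C, which had 94, 106 and 84 intron reads in shCtrl and 79, 64 and 51 in shNFKBIZ, overlaps FAM53C, whose intron reads changed by -0.62, and its difference lost its call without shCtrl replicate 2 (0.43, adjusted P 0.0906, edgeR), shNFKBIZ replicate 2 (0.47, adjusted P 0.0505, edgeR) or shNFKBIZ replicate 3 (0.30, adjusted P 0.233, edgeR).

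A gene that overlaps another one can receive its reads, and 24 of the 53 members overlap another annotated gene. Among the 29 that overlap none, the difference was below 0 in 9 and above 0 in 1, CENPF (31% and 3.45%, against 16.5% and 11.5% of all genes without an overlap), with a median of -0.16. The share of intron reads also rose in the libraries as a whole, from 7.16% to 7.46% of gene reads in shCtrl to 7.63% to 8.15% in shNFKBIZ, and the part of this in the members' difference was not tested. These shares include the gene with the most intron reads in each library. That gene held 9.07% to 10.2% of intron reads in shCtrl but 5.66% to 6.97% in shNFKBIZ, so the rise over the remaining genes was larger than these shares show. Over all members intron reads made up 4.69%, 4.64% and 4.88% of reads in shCtrl and 5.41%, 5.65% and 5.36% in shNFKBIZ. In each of the 11 roles the 3 knockdown libraries lay above the 3 controls. The role with FOXM1 and MYBL2 had 6.10%, 6.35% and 6.95% in shCtrl and 11.1%, 12.5% and 11.1% in shNFKBIZ, and cytokinesis had 4.83%, 4.46% and 5.13% and then 6.66%, 6.84% and 6.61%. Condensin and chromosome structure had 2.71%, 2.67% and 2.88% and then 2.96%, 2.94% and 3.01%, and the spindle checkpoint 4.94%, 4.46% and 5.13% and then 5.64%, 5.58% and 5.17%.

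**Figure D4:**
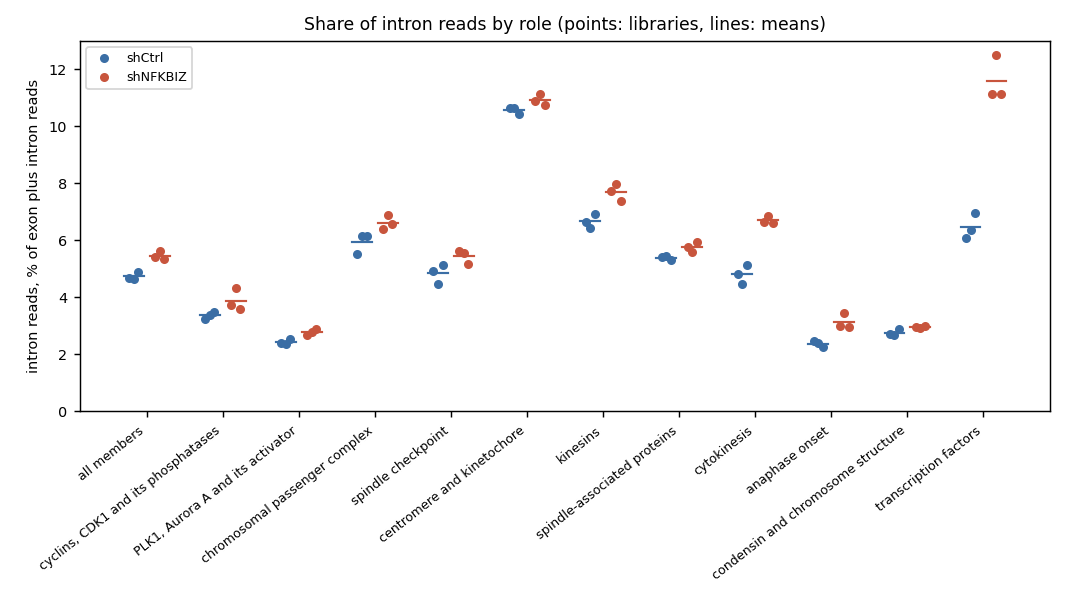
Intron reads as a percent of exon plus intron reads for all members and for each of the 11 roles, by library (points) with group means (lines) and an axis from 0. The transcription factors move from 6.10% to 6.95% in shCtrl to 11.1% to 12.5% in shNFKBIZ, and the other roles by smaller steps.

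Gene length, GC content and level were set beside the changes, as descriptions over genes that share the same 6 libraries. Over the 53 members, the exon change had a Pearson correlation of -0.09 with GC content, -0.12 with log2 exon length and -0.03 with log2 TPM. The exon minus intron change of 52 members had a larger one with GC content, -0.28, and the part of GC content in it was not tested. The 7-mer GGAACTC had been singled out in an earlier look at these data. It occurred in the longest transcript of 15 members, whose median exon minus intron change was -0.20, against -0.16 in the other members. Over all genes tested these medians were -0.09 in 2435 genes with the 7-mer and 0.00090 in 8590 genes without it. Because the 7-mer came from these same data, its medians are a description only and cannot serve as support.

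Other cell cycle genes were taken in 7 lists that share no gene with the 53, and their shares called stand beside the 32.5% higher and 32.8% lower of all genes. Of 24 genes of DNA replication and the G1/S step, 19 were called higher in exon reads and 2 lower, with a median log2 fold change of 0.39 (0.48 with library size alone). The helicase subunit MCM4 rose from 122 ± 5.52 to 217 ± 0.694 TPM (SD, n = 3, log2 fold change 0.74), and E2F1, the activator of G1/S genes, fell from 58.6 ± 3.35 to 42.3 ± 2.22 TPM (log2 fold change -0.55). Of the inner centromere network and CENPA loading factors, 11 of 16 were higher and 2 lower, with a median of 0.26. CENPT rose by a log2 fold change of 0.82, and CENPQ fell from 51.9 ± 4.91 to 19.0 ± 2.14 TPM (log2 fold change -1.53). The outer kinetochore genes outside the 53 were higher in 9 of 13 and lower in 2 (median 0.24), led by SKA3 (0.60), with ZW10 (-0.23) as the largest fall.

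The anaphase-promoting complex was called higher in 5 and lower in 6 of 17 genes (median 0.02), with ANAPC2 at 0.47 and the ubiquitin-conjugating enzyme UBE2S at -0.57. With library size alone it was higher in 9 and lower in 3. Cohesin and the other condensin subunits had 3 higher and 5 lower of 14 (median -0.02, and 0.07 with library size alone), with NCAPH2 at 0.54 and the cohesin ATPase SMC1A at -1.05 in exon reads and 0.64 in intron reads. The DREAM and MuvB genes had 6 higher and 2 lower of 11 (median 0.16), with the MuvB subunit LIN52 at 0.38 and the pocket protein RBL2 at -0.53. Of the 7 cell cycle inhibitors 5 could be tested: CDKN2C rose by 0.17 on the log2 scale, CDKN2B fell from 22.6 ± 2.14 to 3.98 ± 0.372 TPM (log2 fold change -2.59), and CDKN1A, CDKN1B and CDKN2D were not called. CDKN2A had 0 exon reads in all 6 libraries.

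**Figure D5:**
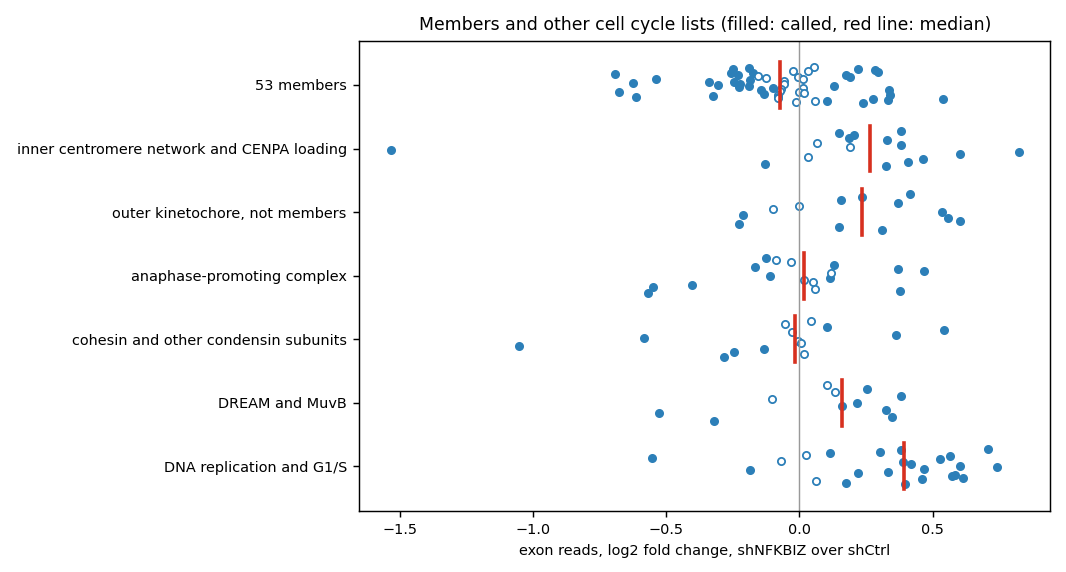
Log2 fold change of exon reads, shNFKBIZ over shCtrl, for the 53 members and 6 other lists of cell cycle genes (points: genes, filled where called, red lines: medians). The members centre at -0.07, and the replication genes at 0.39.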

How the data were processed

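RNA-seq was done on total RNA of LOX-IMVI cells, with 3 shCtrl and 3 shNFKBIZ libraries, grouped by sample title. The study states that each condition had 3 independent experiments. In CLC Genomics Workbench, left at its defaults, the authors aligned reads to hg38 and assigned them to Ensembl genes regardless of strand. The deposited tables hold unnormalised counts, for exons and introns of each gene apart. Total reads include fragments with several matches. Counts of replicates varied beyond sampling noise (chi-square over its degrees of freedom 1.73 to 4.70), and no batch is named in the labels. Deviations from the group mean correlated weakly between libraries of the same replicate number (0.0539, 0.157 and 0.0644). The median of the members was lowest in replicate 2 of both groups, in exon and in intron reads. Whether replicate numbers pair the libraries was not tested.

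From the deposited counts, total exon reads and total intron reads were each filtered with filterByExpr, scaled with TMM factors and tested by edgeR 4.0.16 (robust quasi-likelihood, two-sided) in R 4.3.3, with Benjamini-Hochberg adjustment over all genes. The exon minus intron change came from the interaction term of an edgeR fit to both kinds of read, with library blocks and separate factors. The SE is the size of the log2 fold change divided by the square root of F. TPM were recomputed from exon reads and exon length. Motifs were searched in the first RefSeq window listed for each gene. The fits were also run on simulated counts with a fixed dispersion and few changed genes. That setting differs from these data, where most genes tested were called, so it does not check the scaling or the error rates here.

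The members and lists were chosen with earlier results of these data known. All members are accounted for. Values are given in full for a representative of each role, the 5 highest and 5 lowest exon changes, the 5 largest differences in each direction, and the largest rise and fall of each other list. Alternatives were RLE factors, library size alone, no filter, at least 10 counts in every library, DESeq2 1.42.0, unique reads, total gene reads, a replicate block, a trend on GC content and length, exon factors for introns, members without an overlapping gene, and leaving out each library. Junction reads alone were added after the data had been seen.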

Additional observations from a re-analysis of the deposited data

How the results depend on the processing

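Of 1186 values of named genes under an alternative, 1099 kept their side of the threshold, 68 lost a call and 18 gained one. The sign changed in 50 of the 1186, for 0 values called with the reported settings, and NCAPG exon reads both changed sign and gained a call with the GC and length trend removed (0.0929). The median exon change of the members was -0.0732, 0.0166 with library size alone, -0.00294 with the trend removed and -0.0322 with junction reads. With DESeq2, 3 members were higher and 3 lower in intron reads (5.77% each, against 11.4% and 12.3% of all genes). Scaled with the exon factors, 3 were lower, and the intron median was 0.219, or 0.200 with library size alone. Leaving out each library in turn gave 5 to 13 higher, 4 to 6 lower and 0 to 1 past a 2-fold change in intron reads. The shares were 9.62% to 25% higher and 7.55% to 11.3% lower, against 15.6% to 16.6% and 16.5% to 17.8% of all genes. For the exon minus intron change, exon factors for both gave 2 above and 22 below 0 (median -0.250), and members without an overlapping gene gave 1 and 9. Leaving out each library in turn gave 3 to 5 above and 9 to 12 below, with medians of -0.172 to -0.147. The shares were 5.66% to 9.43% above and 17.3% to 22.6% below, against 9.49% to 11.1% and 12.9% to 14% of all genes. For all other settings these counts and medians stayed within their limits. The replicate block gave 13 higher and 24 lower in exon reads (24.5% and 45.3%, against 33.4% and 33.8% of all genes). In intron reads it gave 13 and 6 (25% and 11.5%, against 19.5% and 19.7%). Whether replicate numbers pair libraries was not tested. Intron reads limit the depth, with a median of 155.5 per member and library. The cause of these shifts was not tested.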
